A study of Mus musculus with 12 samples.

Results

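The genes described here are a list of 41 genes of fibroblasts and the extracellular matrix. The list was chosen by name rather than by a rule on its values, but with earlier results of these data known. A probe set was named for 39 of the 41 genes among 18193 genes with a probe set, and Fbn1 and Loxl2 were not analysed here. Where a gene had several probe sets, the brightest on average over the arrays was used, and all 39 were above the lower limit of 82.5 units, set for usable signal, on all 12 arrays. All 39 were therefore among the 9667 genes tested. RNA was taken from the cardiac ventricle of mouse embryos at embryonic day 16.5, in 4 genotypes with 3 embryos each. Double-null embryos lacked Hdac2 and Hopx, Hdac2-null embryos lacked Hdac2 alone, Hopx-null embryos lacked Hopx alone, and the last group was wild type. The labels describe the alleles only as knockouts and the samples as biological replicates, and give no strain, kind of allele, or promoter or cell type that limits the deletion. The ventricle was not sorted, so each signal is that of a mixture of cardiomyocytes, fibroblasts, vessels and other cells.

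The extracellular matrix of the embryonic ventricle is a network of collagen fibrils, basement membranes, adhesive glycoproteins, proteoglycans and elastic fibres. Cardiac fibroblasts, which arise largely from the epicardium and spread through the ventricular wall during midgestation, make much of the fibrillar collagen, and endothelial cells, mural cells and cardiomyocytes contribute to the basement membranes. Lysyl oxidases cross-link the fibres, matrix metalloproteinases cut them, and tissue inhibitors of metalloproteinases hold those enzymes in check. Hdac2 encodes a histone deacetylase, an enzyme that removes acetyl groups from histones, and Hopx encodes a small homeodomain protein that lacks DNA binding of its own and is known to recruit histone deacetylases in cardiac cells. The design asks whether the matrix programme of the ventricle differs without either gene or without both.

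The targeted genes followed the labels. Hdac2 signal was at most 4.32 units on every double-null and Hdac2-null array, and between 4442 and 5683 on the Hopx-null and wild-type arrays. Hopx signal lay between 1656 and 2066 units on double-null and Hopx-null arrays, and between 8577 and 12240.1 on Hdac2-null and wild-type arrays. Xist, an RNA made from inactivated X chromosomes, lay between 4988 and 6130.4 units on replicate 1 of each null genotype and on wild type 1 and 2, and at most 22.2 on the other arrays, so sex was not balanced. Summed cardiomyocyte marker signal ran from 311073 to 320553 units over all arrays, with 10 of 10 markers above the lower limit. Smooth muscle and pericyte markers summed to between 33130 and 40990 units, and valve markers to between 867 and 1263, with Scx, Cthrc1, Acan and Comp at or below the limit on every array. Leukocyte markers summed to between 13092 and 14991 units in double-null, 12060 and 14901 in Hdac2-null and 15952 and 17510 in Hopx-null ventricles, against 13949 to 19879 in wild type, with Ptprc, Cx3cr1 and C1qa at or below the limit. Endothelial markers summed to between 14458 and 14951 units in double-null, 16093 and 16788 in Hdac2-null and 15233 and 15922 in Hopx-null ventricles, against 14940.2 to 16872 in wild type. Erythroid markers summed to between 198 and 247 units in double-null, 557 and 1614 in Hdac2-null and 197 and 753 in Hopx-null ventricles, against 235 to 476 in wild type, so that the Hdac2-null arrays lay above the double-null and wild-type arrays, with Hba-a1 and Epb42 at or below the limit on every array. Epicardial and mesothelial markers summed to between 6976 and 8580.4 units over all arrays, with Krt19 and Krt8 at or below the limit, and the Schwann and neural markers Sox10, Tubb3 and Th were at or below it throughout. The part of these cell types and of sex in the results below was not tested.

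**Figure D1:**
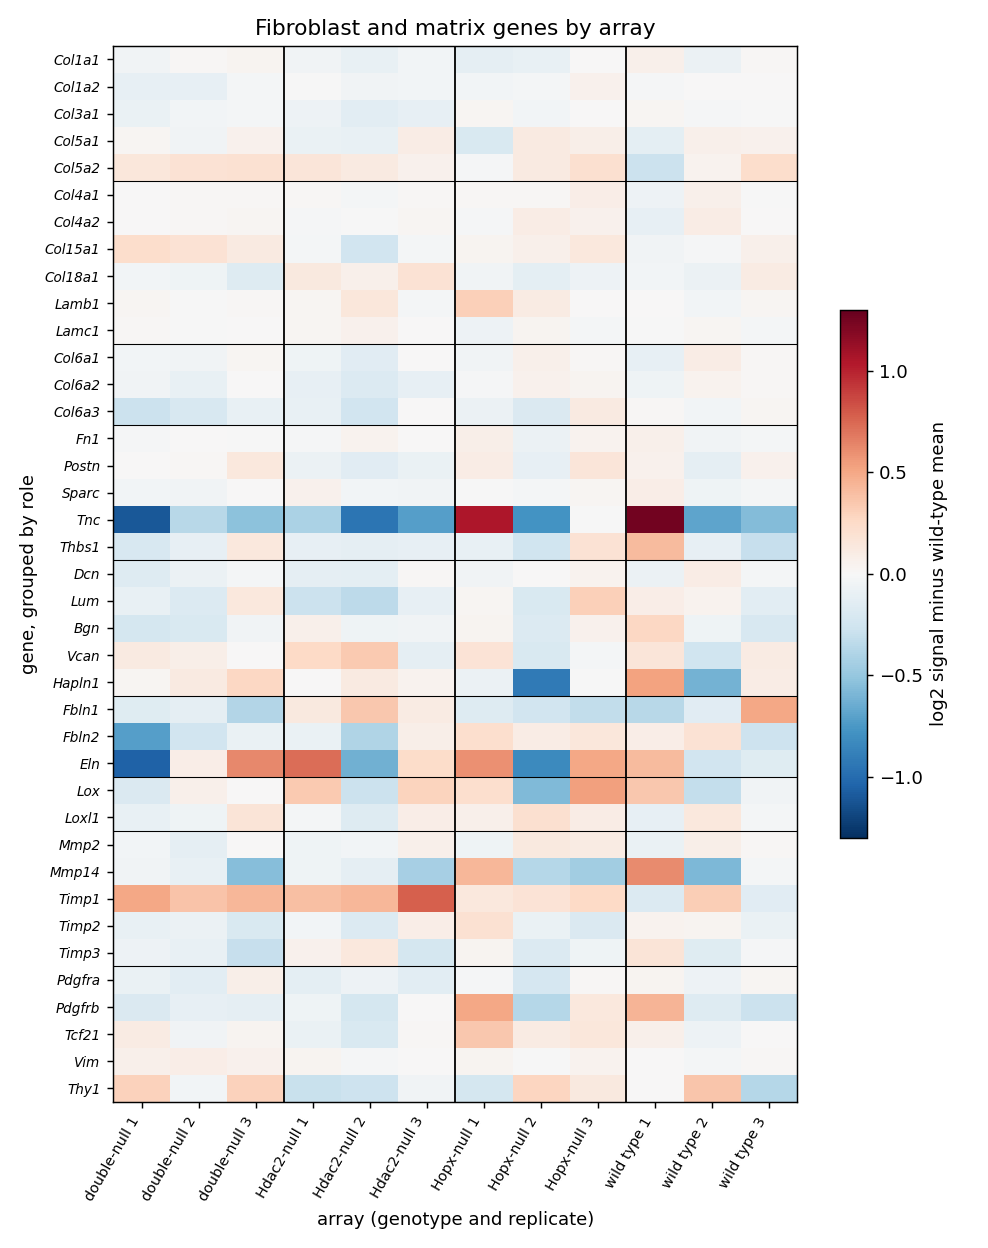
Log2 signal of the 39 genes (rows, grouped by role, separated by thin lines) on each of the 12 arrays (columns, separated by genotype), minus the mean of the 3 wild-type arrays. Most rows are pale, and the strongest colours, in Tnc, Eln and Hapln1, differ between replicates of the same genotype.

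No member passed the test in any comparison. A gene was called at a Benjamini-Hochberg adjusted p under 0.05 over all 9667 genes, in a limma model with 1 coefficient per genotype. In double-null against wild-type ventricles, 0 of 39 members were called, beside 3 of all genes (0.031%). In Hdac2-null against wild type, 0 members were called beside 2 genes (0.0207%), and in Hopx-null against wild type 0 beside 1 gene (0.0103%). Most differences were small, in both directions. In double-null ventricles 16 members were higher than in wild type and 23 lower, with a median log2 difference of -0.036, against -0.014 over all genes, of which 54.4% were lower. In Hdac2-null ventricles 14 were higher and 25 lower (median -0.031, against -0.014 over all genes, of which 55.1% were lower). In Hopx-null ventricles 23 were higher and 16 lower (median 0.014, against -0.0025 over all genes, of which 51.1% were lower). All 3 sets of differences share the same wild-type arrays. The members' median on a single array varied with an SD of 0.0402 on the log2 scale between replicates, which corresponds to 0.0329 for a difference of 2 means of 3 arrays. The medians in Hdac2-null and Hopx-null ventricles were smaller in size than this, and that in double-null ventricles slightly larger. In a bulk sample, fewer cells of a type and less RNA per cell cannot be told apart, and this holds for every level given here.

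At an unadjusted p under 0.05 (limma) there were 4 of 39 members in double-null against wild type (7.31% of all genes), 3 of 39 in Hdac2-null (5.11%) and 1 of 39 in Hopx-null (2.65%). The 3 double-null arrays lay wholly above the 3 wild-type arrays for Col15a1, Timp1 and Vim (6.31% of all genes) and wholly below for Col1a2, Col3a1 and Col6a3 (8.61%). The Hdac2-null arrays lay wholly above wild type for Timp1 (3.89%) and wholly below for Col3a1, Col6a2 and Pdgfra (5.69%). The Hopx-null arrays lay wholly above wild type for Tcf21 (1.89%) and wholly below for 0 members (2.53%).

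The intervals bound how large a difference in the signal of the brightest probe set could have gone unseen. They do not cover other probe sets of the same gene, which are counted further below. In double-null ventricles a dimmer Lamc1 probe set differed by -0.39, against 0.0051 by the brightest. A dimmer Lamb1 probe set differed there by -0.42, against 0.012. The 95% interval of the log2 difference from wild type lay within 1.5-fold in either direction for 29 of 39 members in double-null, 31 in Hdac2-null and 33 in Hopx-null ventricles. It lay within 2-fold for 37 members in each of the 3 comparisons, and the exceptions were Tnc and Eln each time. Col1a1, Col3a1, Col4a1, Fn1, Sparc and Vim were among the members bounded most tightly, as the plot of differences and their intervals shows.

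**Figure D2:**
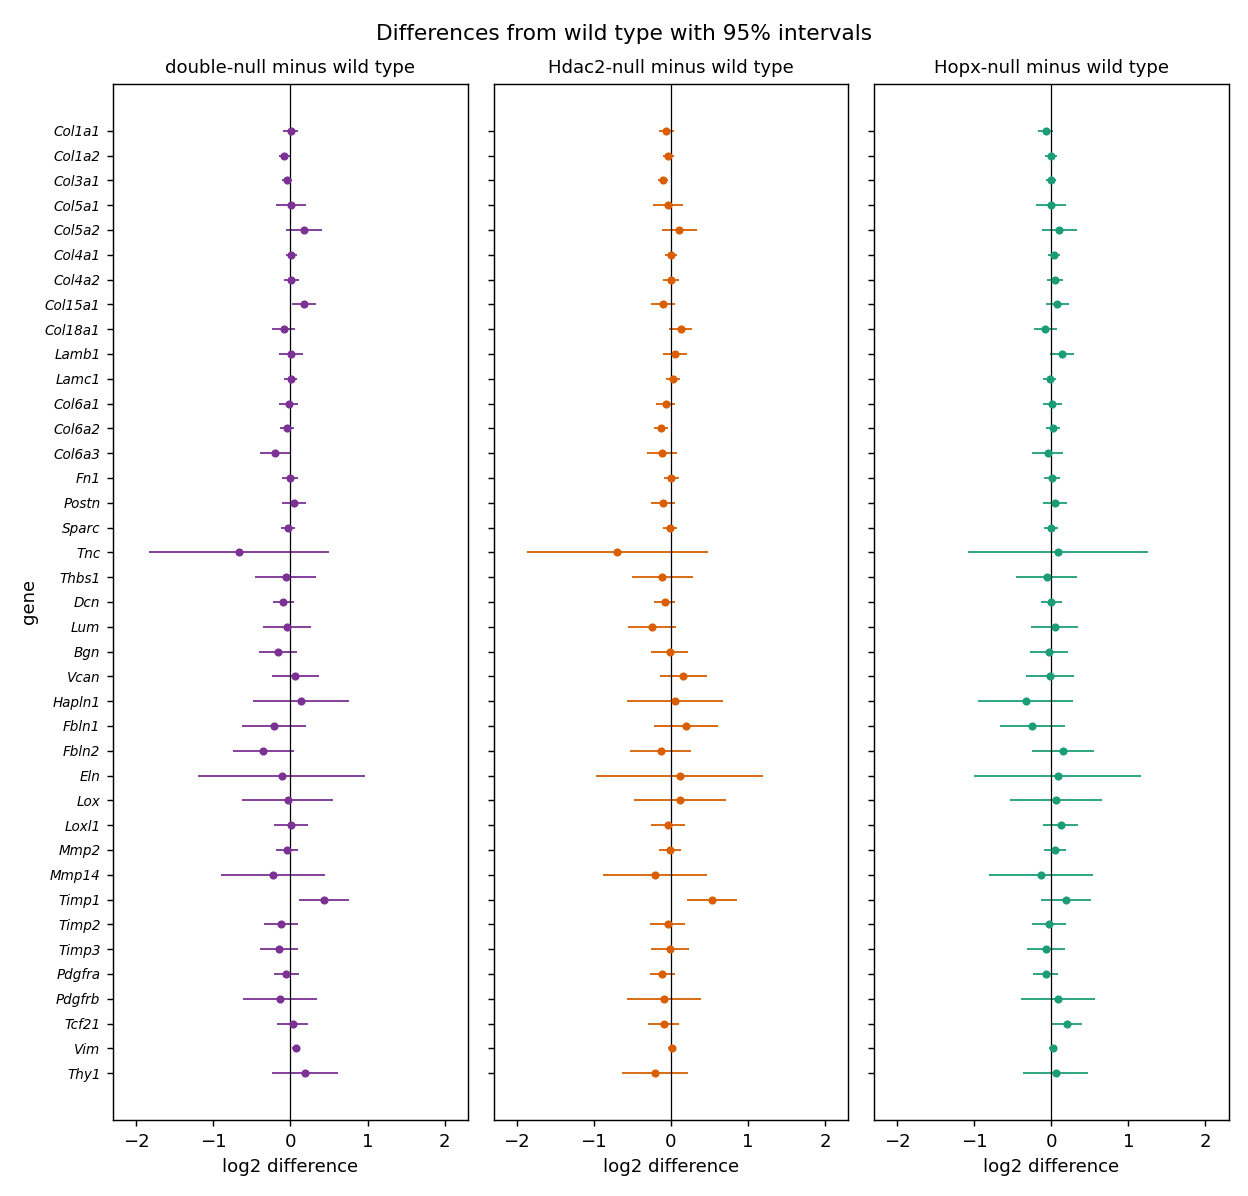
Log2 difference from wild type (horizontal axis) of each of the 39 genes in double-null, Hdac2-null and Hopx-null ventricles, with its 95% interval from limma over 12 arrays. Most points sit close to 0, and the widest intervals belong to Tnc and Eln. The points of Tnc and Timp1 in double-null and Hdac2-null ventricles lie farther from 0.

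Among the fibrillar collagens, Col3a1 had the most regular difference. Col3a1, the type III collagen chain of distensible tissue, measured 17981, 18694 and 18785 units in double-null, 18228, 17363 and 17703 in Hdac2-null and 19396, 18655 and 19153 in Hopx-null ventricles, against 19428, 18843 and 19045 in wild type. Every double-null and Hdac2-null array lay below every wild-type array, with the nearest values at 18785 on double-null 3 and 18843 on wild type 2, and the Hopx-null arrays overlapped wild type. Col3a1 differed from wild type by log2 -0.048, SE 0.030, adjusted p = 0.735 in double-null, log2 -0.11, SE 0.030, adjusted p = 0.893 in Hdac2-null and log2 -0.0029, SE 0.030, adjusted p = 1 in Hopx-null ventricles. A second Col3a1 probe set differed by -0.096 in double-null and -0.26 in Hdac2-null ventricles, and its arrays overlapped wild type in both. Col1a2, a chain of type I collagen, the main load-bearing fibril, measured 14593, 14571 and 15432 units in double-null, 15619.9, 15184 and 15258 in Hdac2-null and 15311, 15442 and 16256 in Hopx-null ventricles, against 15566, 15788 and 15718 in wild type. Its double-null arrays were below all wild-type arrays (log2 -0.078, SE 0.034, adjusted p = 0.671), while its partner chain Col1a1 differed there by 0.0024 (SE 0.045). Col1a1 itself measured 16653 ± 483 units in double-null, 15949.5 ± 329.5 in Hdac2-null and 15843 ± 736 in Hopx-null ventricles, against 16635 ± 847 in wild type (SD, n = 3 each), and the groups overlapped. In Hopx-null ventricles Col1a1 differed by log2 -0.070, SE 0.045, adjusted p = 1, with a second probe set at 0.084, in the other direction. Col5a1 and Col5a2, chains of type V collagen that helps fibrils form, differed from wild type by between -0.031 and 0.18 in the 3 null genotypes. Col5a2 differed by 0.18 (SE 0.10) in double-null, 0.11 (SE 0.10) in Hdac2-null and 0.10 (SE 0.10) in Hopx-null ventricles. Wild type 1 was low (6261 units, against 7819 and 8899 on the other wild-type arrays), and a second Col5a2 probe set lay on the other side of wild type in all 3.

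Collagen VI forms beaded filaments around cells from the chains encoded by Col6a1, Col6a2 and Col6a3. All 3 genes were lower than wild type in double-null ventricles (median -0.046) and in Hdac2-null ventricles (median -0.11). Col6a2 measured 12020.0, 11540.0 and 12400.5 units in double-null, 11496, 10942 and 11471 in Hdac2-null and 12221, 12838 and 12662 in Hopx-null ventricles, against 11889, 12724 and 12504 in wild type. The Hdac2-null arrays were below all wild-type arrays (log2 -0.13, SE 0.040, adjusted p = 0.893), and the double-null arrays overlapped wild type (log2 -0.046, SE 0.040, adjusted p = 0.784). A second Col6a2 probe set differed by -0.14 in Hdac2-null ventricles, where its arrays overlapped wild type. Col6a3 measured 2557, 2674 and 2896 units in double-null, 2889, 2603 and 3116 in Hdac2-null and 2938, 2727 and 3361 in Hopx-null ventricles, against 3118, 3012 and 3160.1 in wild type, with the double-null arrays below all wild-type arrays (log2 -0.19, SE 0.089, adjusted p = 0.671). Col6a1 measured 11950.5, 11911 and 12484 units in double-null, 11822, 11102 and 12303 in Hdac2-null and 11905, 12874 and 12451 in Hopx-null ventricles, against 11403, 13098 and 12399 in wild type, and the double-null arrays lay among the wild-type arrays. Its difference from wild type was -0.020 (SE 0.056) in double-null, -0.066 (SE 0.056) in Hdac2-null and 0.014 (SE 0.056) in Hopx-null ventricles.

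Of the basement membrane genes, the type IV collagen and laminin chains overlapped wild type in every null genotype by the brightest probe set. Col4a1, which with Col4a2 encodes the type IV collagen network, measured 22555, 22782 and 22817 units in double-null, 22709, 22162 and 22702 in Hdac2-null and 22749, 22683 and 23870.3 in Hopx-null ventricles, against 21558, 23608 and 22379.8 in wild type. The 4 groups overlapped, with differences from wild type of 0.014 (SE 0.035) in double-null, 0.0015 (SE 0.035) in Hdac2-null and 0.038 (SE 0.035) in Hopx-null ventricles. Col4a2 differed by 0.014 (SE 0.046) in double-null, 0.0031 (SE 0.046) in Hdac2-null and 0.046 (SE 0.046) in Hopx-null ventricles. Of the laminin chains, Lamc1 stayed between 6011 and 6531 units on all 12 arrays by that probe set. A second, dimmer Lamc1 probe set measured 1192, 1097 and 849 units in double-null, 1459, 1576 and 1398 in Hdac2-null and 1548, 1523 and 1287 in Hopx-null ventricles, against 1251, 1467 and 1357 in wild type. Its double-null values were below those of the other 3 groups, with a difference from wild type of -0.39, where the brighter probe set gave 0.0051. Lamb1 was higher in Hopx-null ventricles by log2 0.14, SE 0.071, adjusted p = 1, where replicate 1 reached 7941 units, against 6890.5 and 6431 on the other Hopx-null arrays and 6250 to 6510.1 in wild type, and without that array the difference was 0.057. Of 2 further Lamb1 probe sets above the limit 1 differed there by 0.13 and 1 by -0.075, and in double-null ventricles by 0.021 and -0.42, against 0.012 by the brightest.

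Col15a1 and Col18a1 encode related collagens that sit at basement membranes, and the endostatin fragment is cut from the Col18a1 protein. Between double-null and Hdac2-null ventricles they differed in opposite directions, and neither passed the test. Col15a1 measured 3879, 3760.1 and 3590.4 units in double-null, 3236, 2776 and 3238 in Hdac2-null and 3384, 3467 and 3625 in Hopx-null ventricles, against 3192, 3260.2 and 3466 in wild type. Its 3 double-null values were above all Hdac2-null and wild-type values, with a difference of log2 0.28, SE 0.070, adjusted p = 0.368 against Hdac2-null and log2 0.18, SE 0.070, adjusted p = 0.669 against wild type. Col18a1 measured 2238, 2201 and 2041 units in double-null, 2507, 2405 and 2604 in Hdac2-null and 2223, 2104 and 2192 in Hopx-null ventricles, against 2238, 2175 and 2467 in wild type. All double-null values were below all Hdac2-null values (log2 -0.21, SE 0.068, adjusted p = 0.368), and the Hdac2-null values overlapped wild type (log2 0.13, SE 0.068, adjusted p = 0.925). In double-null against Hdac2-null ventricles 0 members were called, beside 1 of all genes (0.0103%), and 3 of 39 members had an unadjusted p under 0.05 (11.3% of all genes). The double-null arrays lay wholly above Hdac2-null for Col15a1, Col6a2, Postn, Thy1 and Vim (12.9% of all genes), and wholly below for Col18a1 and Fbln1 (12.7%). The median over members was -0.013, with 19 higher and 20 lower, against -0.0045 over all genes, of which 51.6% were lower. With arrays weighted by how well they matched their group, 5 members were called in double-null against Hdac2-null ventricles, beside 951 of all genes (9.84%). The 5 were Bgn, Col15a1, Col18a1, Col1a2 and Vim. That fit gave double-null 2 a weight of 7.98, against 1.43 and 0.82 for the other double-null arrays. It gave Hdac2-null 1 a weight of 3.05, against 0.77 and 0.875 for the others of its group, and wild type 1 a weight of 0.31. On each side of this comparison 1 array thus held most of the weight.

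**Figure D3:**
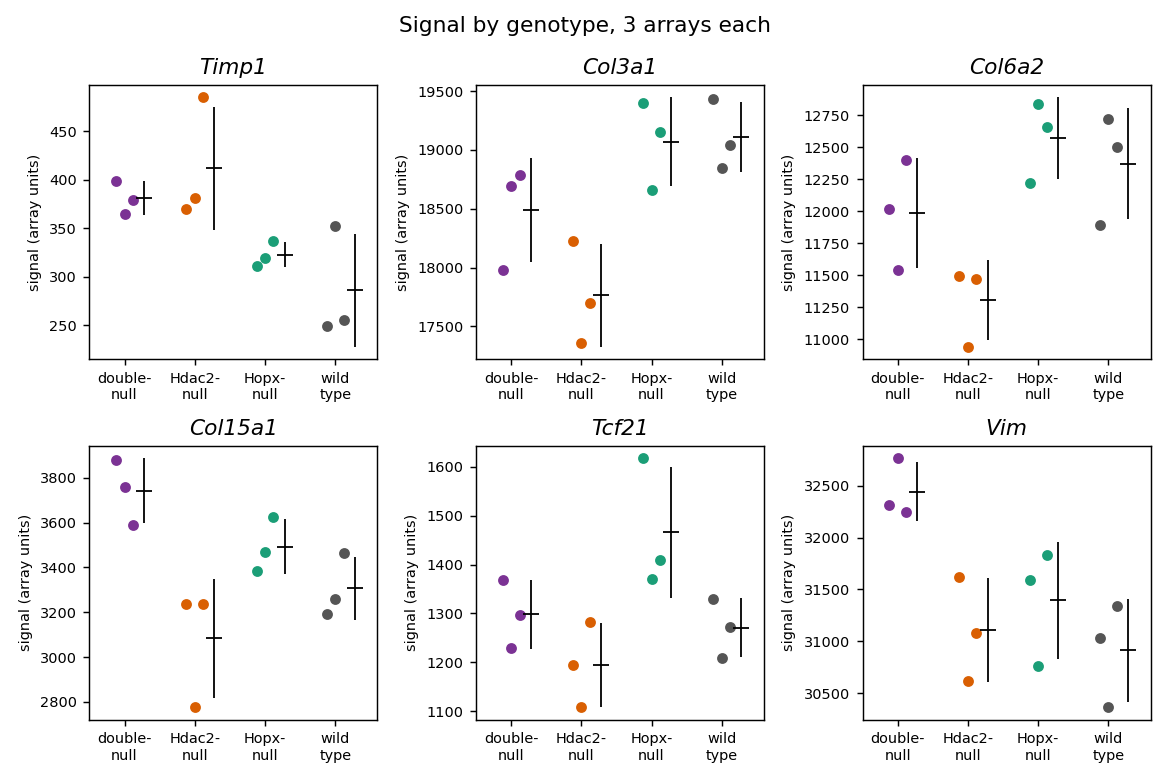
Signal in array units of 6 genes, 1 panel each, on the 3 arrays of each genotype (coloured points), with the mean and SD beside them in black. The vertical axes do not start at 0, and Timp1 in the 6 arrays without Hdac2 lies above the 6 arrays with it.

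Adhesive and matricellular glycoproteins connect cells to the fibres. Sparc, a collagen-binding glycoprotein, measured 22720.4, 22613 and 23439.6 units in double-null, 24294, 22827 and 22689.5 in Hdac2-null and 23264, 22979 and 23838 in Hopx-null ventricles, against 24773, 22408 and 22949.8 in wild type. The groups overlapped, and the difference from wild type was -0.027 (SE 0.041) in double-null, -0.0060 (SE 0.041) in Hdac2-null and 0.00010 (SE 0.041) in Hopx-null ventricles. Fn1, which encodes fibronectin, stayed between 7383 and 8197 units and differed from wild type by -0.0066 (SE 0.046) in double-null, 0.0088 (SE 0.046) in Hdac2-null and 0.013 (SE 0.046) in Hopx-null ventricles. Postn, which encodes periostin of cushion mesenchyme and fibroblasts, measured 11709, 11803 and 12866 units in double-null, 11107, 10539 and 11048 in Hdac2-null and 12549, 10873 and 13066 in Hopx-null ventricles, against 12125, 10822 and 12196 in wild type. Its Hdac2-null values lay below the double-null values and overlapped wild type (log2 -0.10, SE 0.071, adjusted p = 0.925), and its difference between double-null and Hdac2-null was log2 0.15, SE 0.071, adjusted p = 0.455. Thbs1, which encodes thrombospondin 1, an activator of latent TGF-beta, differed from wild type by -0.060 (SE 0.18) in double-null, -0.11 (SE 0.18) in Hdac2-null and -0.059 (SE 0.18) in Hopx-null ventricles.

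Tnc, which encodes tenascin C, a glycoprotein of remodelling tissue, had the largest spread of all members within genotypes, with an SD of 0.75 on the log2 scale. It measured 105, 176 and 157 units in double-null, 170.2, 117 and 137 in Hdac2-null and 469, 132 and 226 in Hopx-null ventricles, against 540.4, 140.5 and 153 in wild type. Its mean was 145.9 ± 36.6 units in double-null and 141.5 ± 26.8 in Hdac2-null ventricles. In Hopx-null ventricles it was 275.5 ± 174.0, against 277.8 ± 227.5 in wild type (SD, n = 3 each). Every null group overlapped wild type. Wild type 1 and Hopx-null 1 were above all other arrays, and both belong to groups in which Hdac2 was present. The difference between the 6 arrays without Hdac2 and the 6 with it was log2 -0.72, SE 0.38, adjusted p = 0.611. Without those 2 arrays, an alternative chosen after the data were seen, it was log2 -0.17, SE 0.20, adjusted p = 0.815. The receptor gene Pdgfrb of mural cells (differences from wild type of -0.14 (SE 0.22) in double-null, -0.092 (SE 0.22) in Hdac2-null and 0.091 (SE 0.22) in Hopx-null ventricles) and the protease gene Mmp14 were also highest on these 2 arrays, at 2033 and 1951 units for Pdgfrb and 404 and 458 units for Mmp14 on Hopx-null 1 and wild type 1, and their differences without Hdac2 were -0.16 (SE 0.15) and -0.15 (SE 0.22) with all arrays and 0.056 (SE 0.10) and 0.14 (SE 0.15) without the 2.

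**Figure D4:**
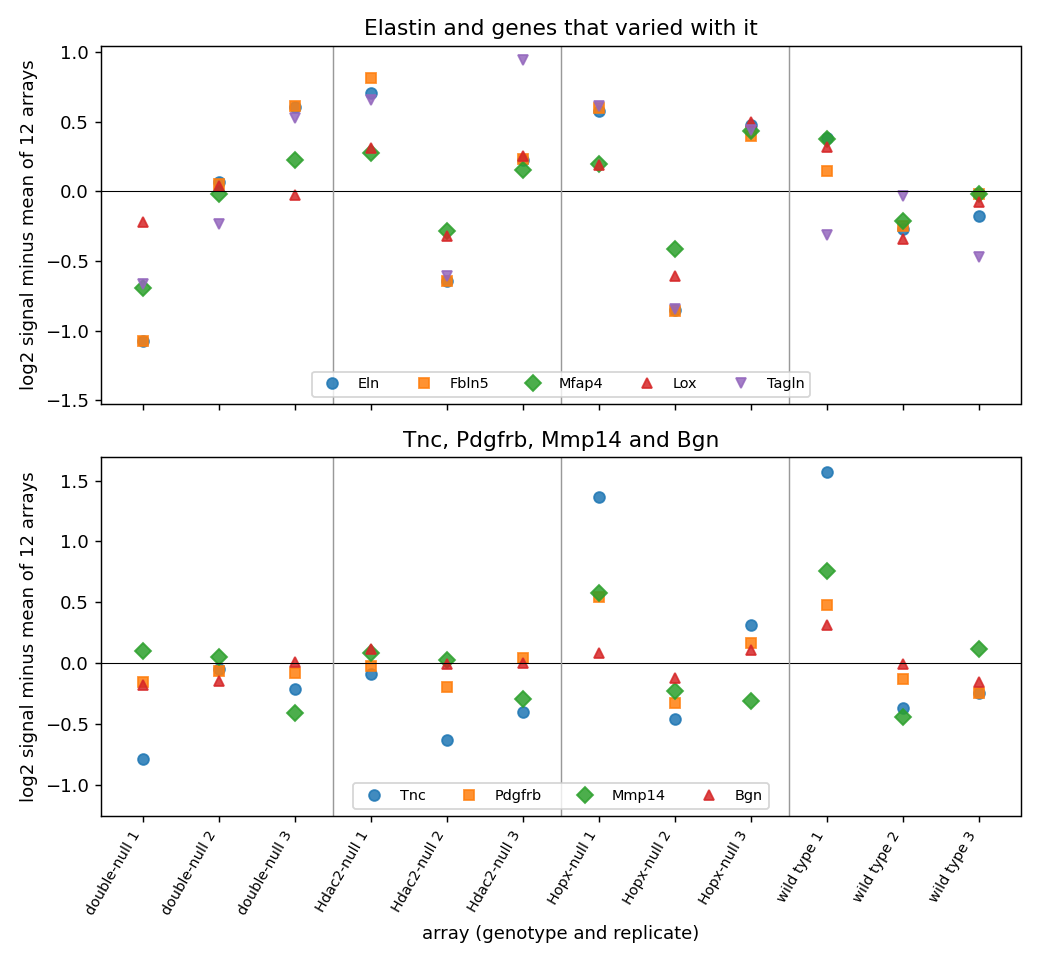
Log2 signal minus the mean over the 12 arrays, for Eln with 4 genes in the upper panel and for Tnc, Pdgfrb, Mmp14 and Bgn in the lower, by array (horizontal axis, genotypes separated by lines). The points of Eln and Fbln5 lie nearly on each other on most arrays, and Tnc is highest on Hopx-null 1 and wild type 1.

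The proteoglycans fill and organise the space between fibres. Vcan, which encodes versican, the large hyaluronan-binding proteoglycan of the embryonic heart, measured 7748, 7552 and 7187 units in double-null, 8582, 9094 and 6625 in Hdac2-null and 8128, 6239 and 7044 in Hopx-null ventricles, against 8001, 5977 and 7695 in wild type. Its replicates ranged widely in every genotype except double-null, and the groups overlapped. Differences from wild type were 0.064 (SE 0.14) in double-null, 0.16 (SE 0.14) in Hdac2-null and -0.014 (SE 0.14) in Hopx-null ventricles. Hapln1 encodes the link protein that locks versican onto hyaluronan, and measured 801, 849 and 949 units in double-null, 788, 854 and 810.5 in Hdac2-null and 747, 416 and 781 in Hopx-null ventricles, against 1126, 512 and 841 in wild type. The double-null values lay above all Hopx-null values (log2 0.47, SE 0.28, adjusted p = 0.686), and the wild-type values overlapped both. Without Hopx-null 2 the difference was 0.18. Decorin, lumican and biglycan are small leucine-rich proteoglycans that bind collagen. Dcn differed from wild type by -0.091 (SE 0.063) in double-null, -0.078 (SE 0.063) in Hdac2-null and 0.0023 (SE 0.063) in Hopx-null ventricles. Lum differed by -0.046 (SE 0.14) in double-null, -0.24 (SE 0.14) in Hdac2-null and 0.045 (SE 0.14) in Hopx-null ventricles. Bgn differed by -0.16 (SE 0.11) in double-null, -0.015 (SE 0.11) in Hdac2-null and -0.028 (SE 0.11) in Hopx-null ventricles.

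In double-null against Hopx-null ventricles, which tests loss of Hdac2 where Hopx is absent, 0 members were called beside 2 of all genes (0.0207%), and 12 members were higher and 27 lower (median -0.034, against -0.0070 over all genes, of which 52.5% were lower). Of 39 members 2, Fbln2 and Col1a2, had an unadjusted p under 0.05 (8.13% of all genes). The double-null arrays lay wholly above Hopx-null for Hapln1, Timp1 and Vim (6.19% of all genes) and wholly below for Fbln2 and Tcf21 (8.14%).

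Elastic fibres give arteries and valves their recoil, and their genes differed widely between replicates. Eln, which encodes elastin itself, measured 2513, 5543 and 8031 units in double-null, 8612, 3384 and 6174 in Hdac2-null and 7881, 2928 and 7365 in Hopx-null ventricles, against 6911, 4389 and 4673 in wild type. The replicates were far apart in every genotype and the groups overlapped, with double-null 1 lowest and Hdac2-null 1 highest. The SD within genotypes was 0.70 on the log2 scale, and differences from wild type were -0.11 (SE 0.49) in double-null, 0.11 (SE 0.49) in Hdac2-null and 0.087 (SE 0.49) in Hopx-null ventricles. Fbln2, which encodes fibulin 2 of valves and vessels, was dim and measured 105, 145 and 163 units in double-null, 162, 131 and 181 in Hdac2-null and 199.6, 184 and 190.1 in Hopx-null ventricles, against 182, 196 and 143 in wild type. All 3 double-null values were below all 3 Hopx-null values (log2 -0.50, SE 0.18, adjusted p = 0.539), and without double-null 1 the difference was -0.32. Fbln1, which encodes fibulin 1, measured 520.3, 536 and 444 units in double-null, 632, 739 and 625 in Hdac2-null and 516, 487 and 465 in Hopx-null ventricles, against 451, 525 and 821 in wild type. Its double-null values were below all Hdac2-null values (log2 -0.41, SE 0.19, adjusted p = 0.448), and its difference in Hopx-null from wild type, log2 -0.25, SE 0.19, adjusted p = 1, turned to 0.0067 without wild type 3.

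Lysyl oxidases cross-link collagen and elastin. Lox measured 2155, 2573 and 2461 units in double-null, 3110.2, 2013 and 2997 in Hdac2-null and 2856, 1650.0 and 3550.1 in Hopx-null ventricles, against 3123, 1981 and 2378 in wild type. The groups overlapped, with differences from wild type of -0.036 (SE 0.27) in double-null, 0.12 (SE 0.27) in Hdac2-null and 0.062 (SE 0.27) in Hopx-null ventricles. A second, dimmer Lox probe set differed by -0.65 in double-null, -0.16 in Hdac2-null and -0.42 in Hopx-null ventricles. Its double-null values, between 214 and 266 units, lay below its wild-type values, between 292 and 650. Loxl1, known for its part in elastic fibre upkeep, differed by 0.0075 (SE 0.10) in double-null, -0.036 (SE 0.10) in Hdac2-null and 0.12 (SE 0.10) in Hopx-null ventricles.

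Timp1, which encodes a secreted inhibitor of metalloproteinases, had the smallest p of all members between the 6 arrays without Hdac2 and the 6 with it. It measured 399, 364 and 379 units in double-null, 369.7, 381 and 485 in Hdac2-null and 311, 319.6 and 337 in Hopx-null ventricles, against 249.6, 353 and 255 in wild type. All 6 arrays without Hdac2 lay above all 6 arrays with it, and the nearest values were 364 units on double-null 2 and 353 units on wild type 2. Groups of 6 parted in this direction for 0.341% of all genes, with Timp1 the only member, and in the other direction for 0.269%, with 0 members. The difference was log2 0.43, SE 0.15, adjusted p = 0.657 in double-null and log2 0.53, SE 0.15, adjusted p = 0.892 in Hdac2-null ventricles against wild type, and log2 0.39, SE 0.10, adjusted p = 0.393 between all 6 arrays without Hdac2 and all 6 with it. Leaving out single arrays gave between 0.32 and 0.47 for the last of these. In double-null against Hopx-null ventricles the unadjusted p of Timp1 (limma) was not under 0.05. Timp1 lies on the X chromosome, and within the arrays with Xist signal it measured 399 units in double-null 1, 370 in Hdac2-null 1 and 311 in Hopx-null 1, against 250 and 353 in wild type 1 and 2. On the arrays without it, the values were 364 and 379 in double-null, 381 and 485 in Hdac2-null and 320 and 337 in Hopx-null, against 255 in wild type 3. Timp1 had 1 probe set, so no second measurement stood beside it.

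The arrays with and without Hdac2 overlapped for the other inhibitors and for the proteases, by the brightest probe set. Timp3, which binds to the matrix itself, measured 5766, 5643 and 4893 units in double-null, 6255, 6629 and 5138 in Hdac2-null and 6157, 5328 and 5799 in Hopx-null ventricles, against 6765, 5401 and 5961 in wild type, and differed from wild type by -0.15 (SE 0.11) in double-null, -0.011 (SE 0.11) in Hdac2-null and -0.065 (SE 0.11) in Hopx-null ventricles. Timp2, which takes part in the activation of Mmp2 by Mmp14, differed by -0.12 (SE 0.10) in double-null, -0.043 (SE 0.10) in Hdac2-null and -0.024 (SE 0.10) in Hopx-null ventricles. Mmp2, a gelatinase, stayed between 5116 and 6020.1 units on all arrays. Mmp14, the membrane-bound protease that activates Mmp2, lay between 200 and 458 units and differed from wild type by -0.23 (SE 0.31) in double-null, -0.20 (SE 0.31) in Hdac2-null and -0.13 (SE 0.31) in Hopx-null ventricles.

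No marker of the fibroblast and mural cells themselves passed the test. Tcf21, a transcription factor needed for cardiac fibroblasts to form in mice, measured 1368, 1228 and 1297 units in double-null, 1193, 1108 and 1282 in Hdac2-null and 1618, 1369 and 1409.8 in Hopx-null ventricles, against 1330.2, 1209 and 1272 in wild type. Its Hopx-null values lay above all wild-type and all double-null values. The difference from wild type was log2 0.20, SE 0.092, adjusted p = 1 in Hopx-null ventricles (0.13 without Hopx-null 1), -0.090 (SE 0.092) in Hdac2-null and 0.031 (SE 0.092) in double-null ventricles. Pdgfra, the platelet-derived growth factor receptor of cardiac fibroblasts, measured 4494, 4340.4 and 5039 units in double-null, 4388, 4572 and 4347 in Hdac2-null and 4750.1, 4116 and 4842 in Hopx-null ventricles, against 4914, 4576 and 4874 in wild type. The Hdac2-null values were below all wild-type values, at most 4572 against at least 4576 units (log2 -0.11, SE 0.074, adjusted p = 0.925). A second Pdgfra probe set above the limit differed there by -0.20, with its arrays overlapping wild type. Vim, which encodes the intermediate filament protein of mesenchymal and endothelial cells, measured 32316, 32764 and 32245 units in double-null, 31622, 30622 and 31086 in Hdac2-null and 31592, 30763 and 31831 in Hopx-null ventricles, against 31037, 30366 and 31339.6 in wild type. It had the smallest spread of all members, an SD of 0.022 within genotypes, and its double-null values lay above those of the other 3 groups by a small amount (log2 0.070, SE 0.024, adjusted p = 0.652 against wild type). A second Vim probe set differed by 0.0295 in double-null ventricles and another by -0.057, in the other direction, and the arrays of both overlapped wild type. Thy1, a surface glycoprotein of fibroblasts and other cells, lay between 246 and 407 units, with differences from wild type of 0.19 (SE 0.19) in double-null, -0.20 (SE 0.19) in Hdac2-null and 0.058 (SE 0.19) in Hopx-null ventricles.

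The design also allows each loss to be read over 6 arrays against 6. Without Hdac2, 0 members were called beside 2 of all genes (0.0207%), and 10 were higher and 29 lower (median -0.046, against -0.011 over all genes, of which 55.3% were lower). In limma, 5 of 39 members had an unadjusted p under 0.05 (8.96% of all genes), namely Timp1, which was higher, and Col3a1, Col6a2, Fbln2 and Col1a2, which were lower. Col3a1 averaged 18126 ± 557 units on the arrays without Hdac2 and 19087 ± 305 with it (SD, n = 6 each), a difference of log2 -0.075, SE 0.021, adjusted p = 0.423. Col6a2 averaged 11645 ± 504 units without Hdac2 and 12473 ± 357 with it (log2 -0.10, SE 0.029, adjusted p = 0.423). Fbln2 averaged 148 ± 27.2 units without Hdac2 and 182 ± 20.6 with it (log2 -0.32, SE 0.13, adjusted p = 0.534), and Col1a2 differed by log2 -0.054, SE 0.024, adjusted p = 0.545. The higher member with the next smallest p was Vim (log2 0.028, SE 0.017, adjusted p = 0.651).

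Without Hopx, 0 members were called beside 1 of all genes (0.0103%), and 19 were higher and 20 lower (median -0.0015, against -0.0054 over all genes, of which 52.6% were lower). Again 5 of 39 members had an unadjusted p under 0.05 (8.73% of all genes). Col15a1 averaged 3617 ± 183 units on the 6 arrays without Hopx and 3195 ± 227 with it (SD, n = 6 each, log2 0.18, SE 0.049, adjusted p = 0.472). Tcf21 averaged 1382 ± 132 units without Hopx and 1232 ± 78.9 with it (log2 0.16, SE 0.065, adjusted p = 0.562). Vim differed by log2 0.041, SE 0.017, adjusted p = 0.562, Col18a1 by log2 -0.15, SE 0.048, adjusted p = 0.512 and Fbln1 by log2 -0.33, SE 0.13, adjusted p = 0.562, or -0.20 without wild type 3. Groups of 6 parted for 0 members, higher (0.186% of all genes) or lower (0.217%). For the interaction, which asks whether the 2 losses add on the log2 scale, 0 members were called and 0 of all genes (0.0%), and 0 members had an unadjusted p under 0.05, beside 404 genes (4.18%). Of the interaction values, 14 were positive and 25 negative among members, with a median of -0.034, and 48.7% were negative among all genes, with a median of 0.0048. The smallest p values belonged to Col15a1 (log2 0.20, SE 0.098, adjusted p = 0.942) and Col1a1 (log2 0.13, SE 0.064, adjusted p = 0.942) among positive and to Lamb1 (log2 -0.18, SE 0.10, adjusted p = 0.942) and Fbln2 (log2 -0.37, SE 0.26, adjusted p = 0.942) among negative values.

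Deviations of the members from their genotype means were weakly related over all pairs and strongly in a few. The median SD within genotypes was 0.112 on the log2 scale over members and 0.135 over all genes tested. Correlations of deviations from genotype means, over the same 12 arrays, had a median r of 0.106 over 741 pairs of members. They were above 0.8 for 28 pairs and below -0.8 for 18. The share of such pairs over all genes was not counted, so these counts do not set the members apart. For Tnc, the r of 0.825 with Bgn was only the 367th highest among all genes tested. The highest were Col5a1 with Mmp2 (r = 0.966), Col3a1 with Eln (0.953), Tnc with Pdgfrb (0.944) and Thbs1 with Bgn (0.934). The lowest was Loxl1 with Timp3 (-0.946). Chains of the same protein were not always the closest pairs. Col6a1 and Col6a2, which lie on the same chromosome, had r = 0.889, but Col6a3, on another chromosome, had 0.261 and 0.290 with them. Col4a1 and Col4a2, whose annotated starts lie 21 bases apart on opposite strands of chromosome 8, had 0.743, Col1a1 and Col1a2 had 0.497, and Lamb1 and Lamc1 had -0.253. Each of these values rests on 12 arrays that share processing and hold 8 degrees of freedom.

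Eln varied with some genes of elastic fibres and of smooth muscle and not with others, a comparison chosen after the values were seen. Among all genes tested, the deviations of Fbln5, which encodes a fibulin needed for elastic fibre assembly in mice, were the most like those of Eln (r = 0.988 over 12 arrays). Sorbs2, Ubr3, Hadhb and Mfap4, a microfibril-associated gene, followed (0.975 to 0.962). Fbln5 measured 1411, 3096 and 4548 units in double-null, 5233, 1903 and 3505 in Hdac2-null and 4502, 1644 and 3917 in Hopx-null ventricles, against 3300.2, 2508 and 2945 in wild type, so that its low arrays were the low arrays of Eln. Lox had r = 0.817 with Eln, the collagen gene Col14a1 0.929, and the smooth muscle genes Tagln and Myh11 0.858 and 0.700. Among all genes tested these ranked 222nd, 22nd, 115th and 562nd in likeness to Eln, so many genes outside these groups followed it more closely. Among further genes of elastic fibres and microfibrils, r with Eln was 0.816 for Efemp1, 0.690 for Fbln2, 0.654 for Ltbp3, 0.463 for Fbn2, 0.369 for Mfap5, 0.323 for Ltbp1, 0.222 for Ltbp4, 0.184 for Loxl1, -0.229 for Mfap2 and -0.361 for Fbln1. Of the smooth muscle genes, Acta2 had -0.084 and Cnn1 -0.238. The 5 genes outside the list whose deviations were most like the mean standardised deviation of the members were Mdh1 (r = 0.986), Lats2 (0.983), Pls3 (0.981), Col9a1 (0.979) and Dync1li2 (0.975), and only Col9a1, a cartilage collagen, is a matrix gene.

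**Figure D5:**
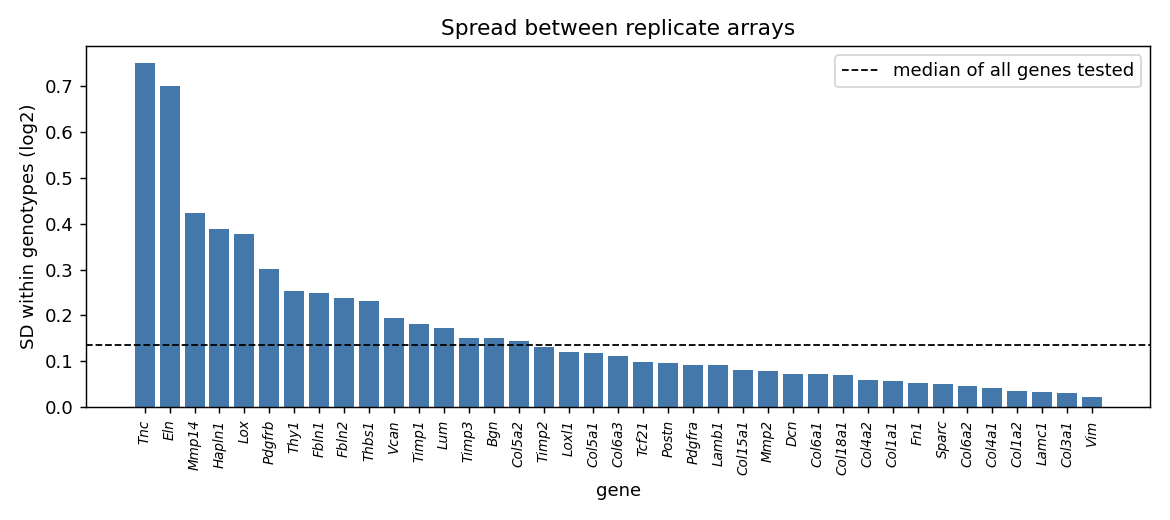
SD of log2 signal between replicates of the same genotype, pooled over the 4 genotypes, for each of the 39 genes (bars), with the median of all genes tested as a dashed line. Tnc and Eln reach 0.75 and 0.70, and Vim 0.022.

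The promoter table of RefSeq (GRCm38.p6) held 26 of the 39 members. The members with an entry and the highest mean correlation with the others were Col6a3, Postn, Col3a1 and Col1a2 (mean r from 0.193 to 0.282). They are shown with Timp1, the member which parted by Hdac2, chosen after its values were seen. Each line gives the 150 bases before the annotated start on the gene's own strand, with matches in capitals. For Postn, with 2 starts in the table, the downstream start is shown.
Col6a3 (chr1:90843972-90844121, minus strand): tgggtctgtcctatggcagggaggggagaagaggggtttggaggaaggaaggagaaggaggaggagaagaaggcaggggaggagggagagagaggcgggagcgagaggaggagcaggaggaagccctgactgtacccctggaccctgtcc
Postn (chr3:54360957-54361106, plus strand): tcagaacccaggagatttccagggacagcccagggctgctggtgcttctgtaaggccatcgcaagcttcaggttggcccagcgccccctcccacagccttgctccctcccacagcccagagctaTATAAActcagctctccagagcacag
Col3a1 (chr1:45311388-45311537, plus strand): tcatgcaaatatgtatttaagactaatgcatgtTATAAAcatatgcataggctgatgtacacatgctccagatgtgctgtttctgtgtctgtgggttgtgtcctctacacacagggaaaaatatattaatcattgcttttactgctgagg
Col1a2 (chr6:4505468-4505617, plus strand): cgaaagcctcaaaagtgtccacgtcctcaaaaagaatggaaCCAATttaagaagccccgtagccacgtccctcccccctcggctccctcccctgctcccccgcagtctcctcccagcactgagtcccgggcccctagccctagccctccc
Timp1 (chrX:20870016-20870165, plus strand): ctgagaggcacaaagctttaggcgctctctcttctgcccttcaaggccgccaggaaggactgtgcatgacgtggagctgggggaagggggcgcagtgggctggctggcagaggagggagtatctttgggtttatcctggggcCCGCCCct
The motifs searched on either strand were TATAAA, the CCAAT box and the GC box GGGCGG, which do not overlap each other in these windows. TATAAA was found in 7.57% of 32851 promoter windows of this length, CCAAT in 24.5% and GGGCGG in 28.6%. Postn held TATAAA with its first base 26 bases before the start, the usual place of a TATA box, and Col3a1 held it 117 bases before the start. Col1a2 held CCAAT 109 bases before the start, and Timp1 held the reverse complement of GGGCGG from 8 bases before it. Col6a3 held none of the 3. A match is a description of the letters only.

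No gene of the wider matrix set passed either. Of 73 further genes of the matrix, its synthesis and its receptors, 61 were tested and 0 were called in the 3 comparisons with wild type. In double-null ventricles 33 were higher and 28 lower (median 0.022), in Hdac2-null 22 and 38 (median -0.028), and in Hopx-null 38 and 22 (median 0.046). The smallest p values in double-null ventricles belonged to P4ha1, a collagen prolyl hydroxylase (log2 -0.81, SE 0.28, adjusted p = 0.657), Bmp1, a procollagen protease (log2 0.23, SE 0.10, adjusted p = 0.671), Lamb2, a laminin chain (log2 -0.32, SE 0.14, adjusted p = 0.671), and Ccn2, a matricellular growth factor (log2 0.28, SE 0.13, adjusted p = 0.671). P4ha1 measured 287, 198 and 298 units in double-null, 338, 440.3 and 317 in Hdac2-null and 388, 402 and 309 in Hopx-null ventricles, against 733, 388 and 317 in wild type, with wild type 1 far above the other arrays. In Hdac2-null ventricles they belonged to the proteoglycans Prelp (log2 -0.85, SE 0.30, adjusted p = 0.893) and Aspn (log2 -0.41, SE 0.15, adjusted p = 0.893), the microfibril gene Mfap2 (log2 0.60, SE 0.21, adjusted p = 0.893) and the laminin chain Lama5 (log2 0.62, SE 0.22, adjusted p = 0.893). Aspn measured 2974, 3273 and 3958 units in double-null, 2367, 1881 and 2425 in Hdac2-null and 3224, 2992 and 4227 in Hopx-null ventricles, against 2775, 2991 and 3042 in wild type, and the Hdac2-null arrays were below all others. In Hopx-null ventricles they belonged to Nid2, which encodes nidogen 2 of basement membranes (log2 0.22, SE 0.081, adjusted p = 1), Ltbp1, which holds latent TGF-beta in the matrix (log2 0.36, SE 0.15, adjusted p = 1), Pcolce, an enhancer of procollagen processing (log2 0.14, SE 0.064, adjusted p = 1), and the integrin Itga9 (log2 -0.21, SE 0.13, adjusted p = 1).

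Probe sets of the same gene often differed in the direction of such small values. For 21 members another probe set was above the limit on every array, 28 probe sets in all. In 84 comparisons with wild type, 49 had the direction of the probe set used and 35 the opposite one, and in the opposite cases the probe set used had differed by a median of 0.024 and at most 0.18 on the log2 scale. These other probe sets lay wholly below wild type in 5 of the 84 comparisons and wholly above in 0. The 5 were Lamc1, Lox, Timp2 and Timp3 in double-null and Col1a2 in Hdac2-null ventricles, where the groups had overlapped by the brightest probe set, and the other probe set differed there by -0.26 for Timp2, -0.16 for Timp3 and -0.086 for Col1a2. These were not fitted as genes of their own, and for the brightest probe sets 8.61% of all genes lay wholly below wild type in double-null and 5.69% in Hdac2-null ventricles.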

How the data were processed

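The authors deposited a table of linear intensities, 1 for each of 45101 probe sets on each array. MAS5 is named, with no version, per the submitters' processing notes, but 48.6% of the deposited intensities lay within 1 unit of 4.5 and the upper quartile ran only from 557.3 to 586.0, so the summary method behind the authors' values is uncertain here and no further normalisation was applied. Total RNA was amplified from a poly(T) primer and labelled with biotin, per the labels' protocols, so signals lean towards the 3′ ends of transcripts. The 64 control probe sets, 932 with several genes and 9160 with none were left out. Symbols were updated by gene identifier against RefSeq for 34741 of 34945 probe sets. Each gene took its brightest probe set by mean log2, which reached 4.76 units or more (40th percentile) in 12433 genes. Signals under 82.5 units, 0.1 times the mean 2% trimmed mean, were raised to that limit, which left 9667 genes with any variance.

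Models were fitted to log2 values with limma 3.58.1 in R 4.3.3 (lmFit, eBayes with an intensity trend, 8 residual degrees of freedom), and p-values were adjusted by Benjamini-Hochberg over all genes in each of 8 comparisons. Intervals are limma's 95% intervals. Precision is limited by having 3 arrays a group. The fit was checked on simulated data. The members and gene lists were chosen with earlier results of these data known. Members named in a comparison were those with an unadjusted p under 0.05, or the 2 smallest in a direction. The member with the highest signal in each role, and the 4 other matrix genes with the smallest p against wild type, were named as well. Arrays of the same replicate number had positive r of deviations throughout for wild type with Hopx-null (0.42, 0.42 and 0.15). The same held for Hdac2-null with Hopx-null (0.21, 0.17 and 0.12) and Hdac2-null with double-null (0.25, 0.096 and 0.25). The remaining pairs of groups had values of both signs, and a fit with the number as a block was an alternative. The others were no lower limit, quantile normalisation, no filter, the mean over probe sets, no trend, array weights, only the groups compared, each array left out, and wild type 1 with Hopx-null 1 left out, the last chosen after seeing the data.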

Additional observations from a re-analysis of the deposited data

How the results depend on the processing

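No member was called under any alternative except array weights, where 5 members were called in double-null against Hdac2-null ventricles (smallest adjusted p = 0.0167). Dropping the filter left the same number of genes tested, 9667, and the same counts called, so it was no separate check. The weights ran from 0.31 for wild type 1 to 7.98 for double-null 2, and the cause was not tested. Col1a1 in Hopx-null against wild type turned to 0.0068 with the mean over probe sets, and Fbln1 ran from -0.4256 to 0.0067 as single arrays were left out, the last without wild type 3. No other named value changed direction, but several moved by over 1.5 times without 1 array. In Hopx-null against wild type Col1a1 ran from -0.11 without wild type 2 to -0.0369 without wild type 1 (-0.0447 without Hopx-null 1 and -0.1077 without Hopx-null 3), and without Hopx-null 1 Lamb1 was 0.0574 and Tcf21 0.1304. In double-null against Hopx-null ventricles Hapln1 was 0.1788 without Hopx-null 2, Fbln2 -0.3168 without double-null 1 and Col1a2 -0.0492 without Hopx-null 3. Fbln1 without Hopx was -0.2031 without wild type 3. For the interaction Fbln2 was -0.1831 without double-null 1 and -0.2325 without wild type 3, Lamb1 -0.0936 without Hopx-null 1 and Col15a1 0.1295 without Hdac2-null 2. Counts of all genes called moved by over 1.5 times in a few cases. In Hdac2-null against wild type there were 2, with 4 without the lower limit and 1 with the mean over probe sets. In Hopx-null there were 1, with 2 without the limit. In double-null against Hopx-null there were 2, with 1 without the limit, with the mean over probe sets, with the replicate block or with only the groups compared, and 5 without wild type 1 and Hopx-null 1. Without Hdac2 there were 2, with 5 under array weights, and without Hopx 1, with 2 without the limit. Without wild type 3 there were 4 in Hdac2-null, 8 in double-null and 27 without Hdac2, where there were 4 without Hopx-null 3, and 1 for the interaction, where there were 0. Leaving out wild type 2 gave 2 without Hopx, and leaving out any of 7 arrays gave 1 in double-null against Hopx-null. With the replicate block Timp1 in Hdac2-null measured log2 0.53 (SE 0.15, adjusted p = 0.79 in limma) and no member's call changed. Leaving out single arrays gave members' medians from -0.0711 to -0.0053 in Hdac2-null, -0.0042 to 0.0252 in Hopx-null and -0.0575 to -0.0021 in double-null ventricles. Members at an unadjusted p under 0.05 then numbered 3 to 6, 0 to 5 and 1 to 6 in these 3 comparisons. With 3 arrays a group, the differences of Tnc and Eln from wild type could not be bounded within 2-fold.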

Other observations

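Among all genes tested, those whose deviations from genotype means were most like those of Tnc over the 12 arrays were Rarb (r = 0.972), a retinoic acid receptor gene, and Synpo (0.966), Stt3a (0.966), Vav2 (0.965) and Tmem185b (0.963). For Timp1 they were Blvrb (0.961), Tpst1 (0.954), Nme5 (0.937), Slc35b1 (0.921) and Mtif2 (0.915). Both genes were chosen after their values were seen, and the arrays are shared by all of these values.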
